A study of Mus musculus with 6 samples.

Results

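Paneth cells sit at the base of small intestinal crypts and discharge antimicrobial proteins into the crypt lumen. Besides the alpha-defensins, their granules carry a ribonuclease (Ang4), a lysozyme (Lyz1), lectin-like proteins (Itln1, Mptx2) and, in the mouse, the protease that trims pro-defensins to their active form (Mmp7). The 8 genes followed here were Ang4, Itln1, Lyz1, Mmp7, Mptx1, Mptx2, Habp2 and Nupr1, chosen by name. Of these, 5 were among the 1386 entries of the deposited table (Ang4, Lyz1, Itln1, Mmp7 and Mptx2). All 5 were marked as lower after Akkermansia, as were 1040 of the 1386 entries. The other 3 were not listed: Mptx1 (a second mucosal pentraxin), Habp2 (a hyaluronan-binding serine protease) and Nupr1 (a stress-induced nuclear protein). Absence from the table can mean that a gene fell short of the authors' selection or had no measurement; the table does not tell these apart.

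The libraries came from intestinal epithelial cells of wild-type (WT) mice on regular chow. In the Akk group (3 libraries) mice received 400000000 Akkermansia muciniphila, a mucin-degrading gut bacterium, by gavage each day for 7 weeks from 8 weeks of age. In the PBS group (3 libraries) the mice received the carrier alone over the same period. The title of the series places the work in the jejunum, and the labels do not say whether each library is a mouse of its own. The scatter behind the p-values is thus that of these libraries, which may be technical. Sequencing depth implied by the table was 23614091 to 29441073 fragments per library. The table holds only genes that the authors had selected as differing between these same libraries (the largest p in the authors' deposited table is 0.0498). The direction of each member was therefore fixed by its listing and carries no independent evidence. The p-values given here, adjusted or not, were likewise computed on entries picked for differing between these libraries. They do not measure how often such differences would arise among all genes.

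Every listed member had its highest value in PBS replicate 2, far above the other 5 libraries. Of the 1040 genes listed as lower, 98.3% also had their highest value there, by margins that varied widely. The members' fitted differences are therefore given with and without that library. The alpha-defensins, the defining Paneth cell genes, were present: 18 of the 44 named were listed, all as lower. None of the markers named for tuft cells (10), T cells (12), B and plasma cells (10), myeloid cells (10) or stromal cells (10) was listed.

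The promoters of 3 members are shown because these genes differed in the 6-library values that follow. The 3 genes closest to the Lyz1 profile were defensins, as were all 5 closest to Mptx2 and the gene closest to Ang4. The Mmp7 profile lay close to genes of dividing cells. The Itln1 difference changed sign when PBS replicate 2 was left out, to 0.090 (SE 0.21) on the log2 scale. Without that library, no defensin was among the 5 genes closest to any member, so the difference in profiles rests on it. Each stretch runs from 180 bases before to 19 bases after the RefSeq transcript start on GRCm38.p6, read 5′ to 3′ on the gene's strand. Capitals mark matches to short motifs of TCF/LEF factors (CTTTGAT and also CTTTGAA), of E-boxes bound by Atoh1 (CAGCTG) and of SOX factors (ACAATG or else ACAAAG), searched on both strands.
Lyz1, chr10:117292849-117293048, minus strand: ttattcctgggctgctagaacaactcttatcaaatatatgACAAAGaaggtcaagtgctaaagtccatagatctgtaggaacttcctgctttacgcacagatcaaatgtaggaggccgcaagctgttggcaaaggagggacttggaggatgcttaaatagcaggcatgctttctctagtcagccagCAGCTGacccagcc
Mmp7, chr9:7691910-7692109, plus strand: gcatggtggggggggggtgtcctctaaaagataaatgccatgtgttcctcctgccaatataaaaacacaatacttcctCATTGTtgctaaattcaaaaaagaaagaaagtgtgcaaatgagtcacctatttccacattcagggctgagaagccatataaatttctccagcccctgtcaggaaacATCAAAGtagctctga
Itln1, chr1:171535275-171535474, minus strand: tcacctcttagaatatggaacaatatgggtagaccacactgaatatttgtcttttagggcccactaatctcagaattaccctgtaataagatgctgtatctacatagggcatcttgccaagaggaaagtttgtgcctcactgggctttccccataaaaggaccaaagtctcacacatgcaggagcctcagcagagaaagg
Over the 300-base windows searched, Lyz1 held an E-box motif 6 bases after the start and a SOX motif 140 bases before it. Mmp7 held CTTTGAT on the opposite strand, 4 bases after the start, and a SOX motif 102 bases before it. Ang4 held 1 SOX match, 113 bases before the start. Mptx2 held 2, at 96 bases before the start and 31 bases after it. None of these motifs was in the Itln1 window. TCF/LEF letters occurred in 8.65% of all 32851 mouse windows, CAGCTG in 16.3% and a SOX motif in 28.6%. These are matches of letters and do not show binding.

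Ang4, an angiogenin-family ribonuclease that kills gut bacteria in the mouse, lies on chromosome 14 (51763878 to 51773590, minus strand, GRCm38) and has 2 exons. Its FPKM (fragments scaled to the gene's length and to the depth of its library) was 32.1, 35.7 and 24.5 in Akk replicates 1 to 3, against 48.3, 1305 and 40.7 in PBS replicates 1 to 3. Every Akk library lay below every PBS library, with PBS replicate 2 far above the rest. The mean was 30.8 ± 5.70 FPKM in Akk and 465 ± 728 FPKM in PBS (SD, n = 3 each). From the counts, edgeR, a count model fitted across the whole table, gave -3.92 as the log2 fold change, Akk over PBS (SE 1.33; edgeR adjusted p = 0.0861). Without PBS replicate 2 it was -0.53 (SE 0.23; edgeR adjusted p = 0.0922). In bulk RNA, the number of Paneth cells, their RNA per cell and the share of crypt or other cells in a library cannot be told apart. This holds for each member.

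Lyz1, the Paneth cell lysozyme that cuts bacterial peptidoglycan, lies on chromosome 10 (117287797 to 117292868, minus strand) and has 4 exons. It had 17.6, 18.5 and 25.5 FPKM in Akk, against 27.4, 978 and 28.8 FPKM in PBS. The groups did not overlap, but Akk replicate 3 came within a few FPKM of PBS replicates 1 and 3. Means were 20.5 ± 4.30 FPKM in Akk and 345 ± 548 FPKM in PBS (SD, n = 3 each). The log2 fold change was -4.07 (SE 1.38; edgeR adjusted p = 0.0861), and -0.45 (SE 0.23; edgeR adjusted p = 0.120) without PBS replicate 2.

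Mmp7 encodes matrilysin, the protease that activates alpha-defensins in mouse Paneth cells (chromosome 9, 7692090 to 7699585, plus strand, 6 exons). Its level was low, at 4.72, 4.24 and 5.32 FPKM in Akk, against 6.59, 91.0 and 6.42 FPKM in PBS. Again no Akk library reached a PBS library. The log2 fold change was -2.86 (SE 1.11; edgeR adjusted p = 0.0861), the smallest of the 5 in size, and -0.45 (SE 0.21; edgeR adjusted p = 0.106) without PBS replicate 2. An antisense gene, AV064505, overlaps Mmp7 exons, and the strand setting of the counting is not given in the sources used here, so reads of the pair could not be separated.

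Itln1, an intelectin made by Paneth and goblet cells, whose human counterpart binds microbial sugars, lies on chromosome 1 (171518122 to 171535294, minus strand, 8 exons). It had 29.5, 29.9 and 35.2 FPKM in Akk, against 25.9, 692 and 33.3 FPKM in PBS. PBS replicate 1 was the lowest of all 6 libraries, so the groups overlapped. Means were 31.5 ± 3.17 FPKM in Akk and 250.3 ± 382 FPKM in PBS (SD, n = 3 each). The log2 fold change was -2.99 (SE 1.20; edgeR adjusted p = 0.0861) with all libraries. Without PBS replicate 2 it was 0.090 (SE 0.21; edgeR adjusted p = 0.677), so the sign turned. Such a turn was seen in 4 of the 1040 genes listed as lower (0.385%): Itln1, Defa29, Defa30 and Clps.

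Mptx2, a mucosal pentraxin, lies further along chromosome 1 (173274382 to 173277777, minus strand, 2 exons). Its mean level in Akk was the lowest of the 5, with 3.22, 4.45 and 5.34 FPKM, against 4.09, 320.4 and 5.88 FPKM in PBS. The groups overlapped, since Akk replicates 2 and 3 lay above PBS replicate 1. Its log2 fold change was the largest of the 5, at -4.66 (SE 1.63; edgeR adjusted p = 0.0861), and -0.20 (SE 0.31; edgeR adjusted p = 0.550) without PBS replicate 2. Counts behind these values were 108 to 157 per Akk library, against 121, 8566 and 183 in PBS. The lowest, 108, has an exact 95% Poisson interval of 88.6 to 130.4, which covers counting error only.

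**Figure D1:**
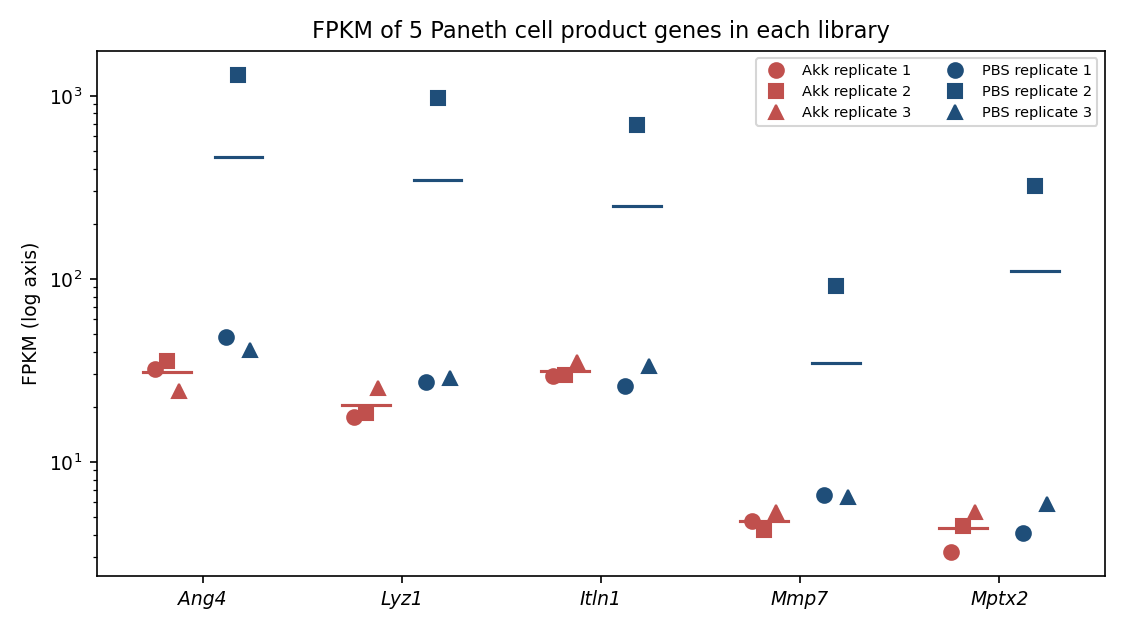
FPKM (log axis) of the 5 listed genes in each Akk (red) and PBS (blue) library, with short lines at the arithmetic group means (n = 3 each). PBS replicate 2 (blue squares) lies far above the other 5 libraries for every gene, from 91.0 FPKM for Mmp7 to 1305 FPKM for Ang4, and pulls each PBS mean above the other PBS points.

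None of the 5 passed the edgeR quasi-likelihood test after Benjamini-Hochberg adjustment over all 1386 entries, and 0% of the entries did. At an unadjusted p under 0.05 all 5 were lower, as were 54.3% of all entries (57.1% in either direction). The limma-voom fit called 2 entries, neither of them a member. Its log2 fold changes were smaller in size than those of edgeR: -2.14 for Ang4, -2.15 for Lyz1, -1.67 for Mmp7, -1.40 for Itln1 and -2.13 for Mptx2. Without PBS replicate 2, 0 of the 5 passed, where 17.7% of all entries passed as lower (19.5% in either direction). Leaving out PBS replicate 1 or PBS replicate 3 instead, so that PBS replicate 2 was 1 of only 2 PBS libraries, all 5 passed as lower (edgeR adjusted p = 0.0391 and 0.0395), beside 52.2% and 50.9% of all entries. No overlap between groups was seen for 3 of the 5 (Ang4, Lyz1 and Mmp7), beside 86.6% of the 1040 lower entries and 65.0% of the whole table. The exact permutation test on log2 FPKM gave p = 0.1 (two-sided) for these 3, the smallest value that 3 against 3 libraries allow. It gave exact p = 0.3 for Mptx2 and exact p = 0.8 for Itln1.

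DESeq2 returned no p-value for any of the 5 members, which it does where a single count is extreme within its group. The same happened to all 18 listed alpha-defensins and to 18.9% of the table (262 entries), while 786 entries (56.7%) were called. In the authors' deposited table, log2 fold changes were -1.54 for Ang4, -1.54 for Lyz1, -1.48 for Mptx2, -1.28 for Mmp7 and -1.19 for Itln1. The authors' deposited table gives p-values of 0.00318, 0.00325, 0.00438, 0.0123 and 0.0225 for these genes in that order. The log2 ratios of mean FPKM computed from the same libraries were larger in size, at -3.92, -4.07, -4.67, -2.87 and -2.99. How the deposited fold changes were derived is not given in the sources used here.

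**Figure D2:**
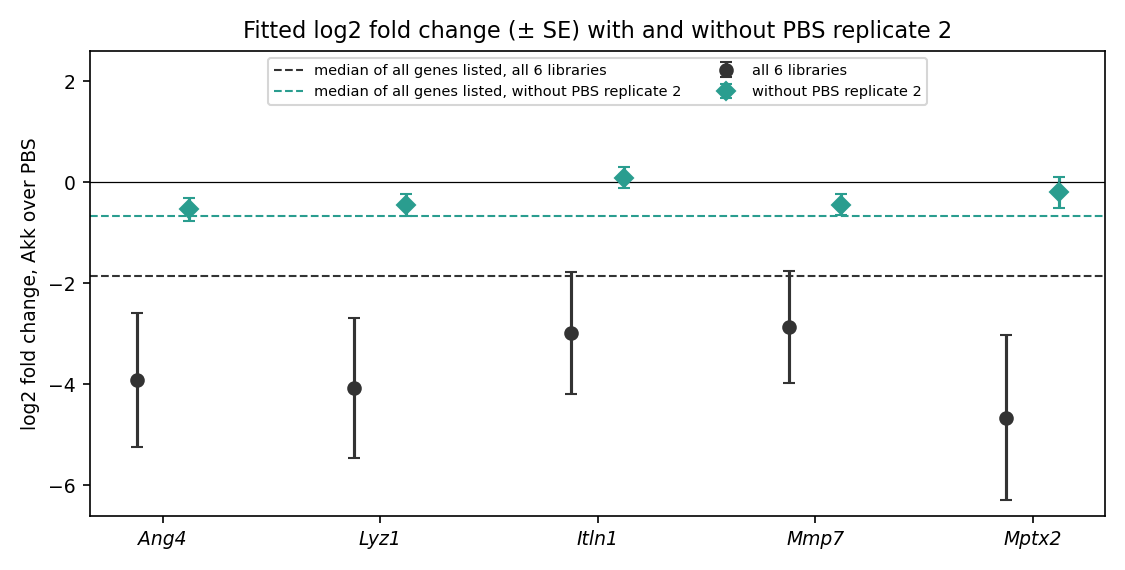
Fitted log2 fold change from edgeR, Akk over PBS, for all 6 libraries (black circles) and without PBS replicate 2 (green diamonds). Bars are the SE derived from the edgeR F statistic, and dashed lines are the medians of all 1386 entries. With all libraries the 5 genes lie below the median of -1.85, and without PBS replicate 2 they lie above the median of -0.66, with Itln1 at 0.090.

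Over the 5 members the median log2 fold change was -3.92, beside -1.85 over the whole table and -2.19 over its lower entries. The same medians without PBS replicate 2 were -0.45, -0.66 and -0.78. In size, the members thus stood beyond the table's median with that library and short of it without.

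Set against the average of the other 2 PBS libraries, PBS replicate 2 was 64.3-fold higher for Mptx2, 34.8-fold for Lyz1, 29.3-fold for Ang4, 23.4-fold for Itln1 and 14.0-fold for Mmp7. Mptx2 ranked 2 among the 1040 genes listed as lower by this measure, and Mmp7 ranked 106. The 18 alpha-defensins ranged from 27.5-fold to 70.8-fold, with a median of 42.9-fold. Ang4, Lyz1 and Mptx2 fell inside that range, while Itln1 and Mmp7 fell below it. The median was 20.3-fold for the 7 listed crypt base stem cell genes, 11.1-fold for the 27 listed proliferation genes and 5.77-fold for all genes listed as lower.

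**Figure D3:**
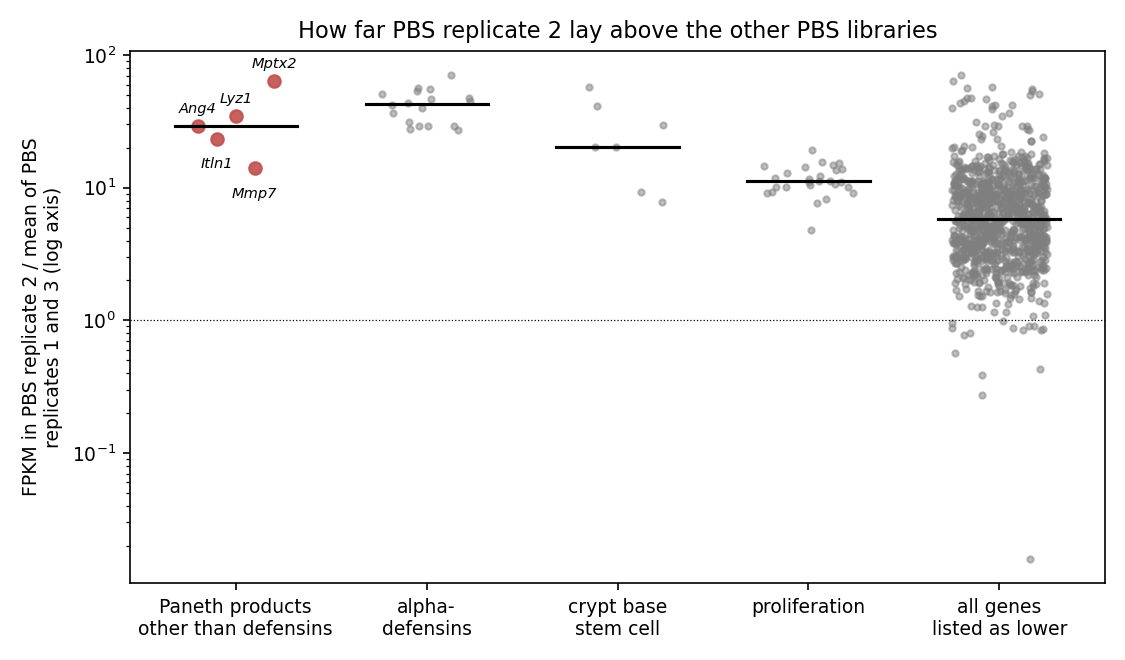
FPKM in PBS replicate 2 divided by the mean of PBS replicates 1 and 3 (log axis), 1 point per gene, with black lines at the medians. The 5 Paneth products (red) spread from 14.0-fold for Mmp7 to 64.3-fold for Mptx2, around a median of 29.3-fold, beside 42.9-fold for the alpha-defensins and 5.77-fold for all genes listed as lower.

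As a share of sequencing, reads of the 5 genes made up 0.0123%, 0.0130% and 0.0142% of the implied depth in Akk, against 0.0155%, 0.471% and 0.0164% in PBS. Their summed FPKM was 87.1, 92.8 and 95.8 in Akk, against 112, 3386 and 115 in PBS. Among the listed genes, Ang4 stood at rank 155 to 179 by FPKM in Akk, against rank 130, 9 and 153 in PBS replicates 1 to 3. Relative to the summed FPKM of the 18 alpha-defensins, the 5 members came to 0.620, 0.585 and 0.557 in Akk, against 0.587, 0.346 and 0.466 in PBS. In PBS replicate 2 the 18 listed defensins thus outweighed the 5 listed members by the widest margin of the 6 libraries. Defensins and products that were not listed are not part of these sums.

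The order of the members by FPKM differed between libraries. In Akk, Itln1 and Ang4 had overlapping levels at the top, Lyz1 followed (its Akk replicate 3 value lay above that of Ang4), and Mmp7 and Mptx2 overlapped at the bottom. In all 3 PBS libraries Ang4 was the highest member. Lyz1 stood above Itln1 in PBS replicates 1 and 2. Mptx2 stood above Mmp7 in PBS replicate 2 but below it in PBS replicates 1 and 3. Of the summed member FPKM, Itln1 held 33.9%, 32.2% and 36.7% in Akk, against 23.1%, 20.4% and 28.9% in PBS. The Itln1 share was thus higher in every Akk library than in any PBS library.

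The 10 ratios between pairs of members, which do not depend on library depth, were compared between groups. The Itln1 to Lyz1 ratio of FPKM was 1.68, 1.61 and 1.38 in Akk, against 0.945, 0.707 and 1.16 in PBS. The Itln1 to Mptx2 ratio was 9.15, 6.71 and 6.59 in Akk, against 6.34, 2.16 and 5.66 in PBS. Ang4 stood to Itln1 at 1.09, 1.19 and 0.697 in Akk, against 1.86, 1.89 and 1.22 in PBS. These 3 ratios did not overlap between groups, and all 3 contain Itln1; the remaining Itln1 ratio, to Mmp7, overlapped (6.25, 7.05 and 6.62 in Akk, against 3.93, 7.60 and 5.18 in PBS).

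For the 3 ratios without overlap the exact permutation test gave p = 0.1 (two-sided), the smallest that 3 against 3 allow, and 0.333 after Benjamini-Hochberg adjustment over the 10 pairs. None therefore passed. The difference in mean log2 ratio, Akk minus PBS, was 0.76 for Itln1 to Lyz1, 0.80 for Itln1 to Mptx2 and -0.75 for Ang4 to Itln1. Without PBS replicate 2 these differences were 0.57, 0.30 and -0.64, in the same direction (exact permutation p = 0.2 for each, the smallest that this setting allows). Since all 3 ratios share Itln1, they are not independent. By contrast Ang4 to Lyz1 differed by 0.0081 on the log2 scale (exact permutation p = 1.0), with 1.82, 1.93 and 0.963 in Akk, against 1.76, 1.33 and 1.42 in PBS. That p does not show that the pair kept 1 proportion.

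**Figure D4:**
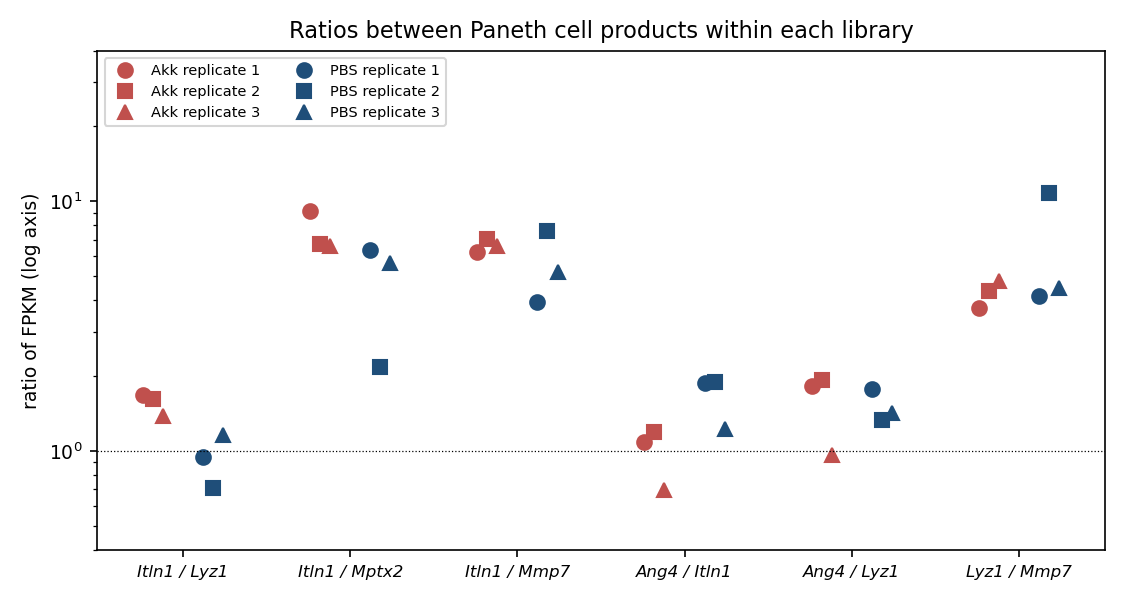
FPKM of 1 member divided by FPKM of another within each library (log axis), for 6 of the 10 pairs, Akk in red and PBS in blue. The Akk libraries lie above the PBS libraries for Itln1 to Lyz1 and Itln1 to Mptx2 and below them for Ang4 to Itln1, while the other 3 pairs overlap.

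The genes whose profile lay closest to each member were found by the root mean square difference between centred log2(FPKM + 0.1) profiles over the 6 libraries, among 1157 named genes. All 5 closest to Mptx2 were alpha-defensins (Defa17, Defa30, Defa3, Defa24 and Defa23; differences 0.21 to 0.32). Of the 5 closest to Lyz1, 3 were defensins (Defa24, Defa3 and Defa17), followed by Top2a and Mptx2. Ang4 was closest to Defa21 (0.11), with Defa20, Myb, Defa22 and Slc12a2 next.

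Mmp7 and Itln1 had no defensin among their 5. Mmp7 was closest to Gart, an enzyme of purine synthesis (0.066), then to Knl1, Ect2 and Kif18b, which act in cell division, and to Sema5a. Itln1 was closest to Cdca7 (0.26), Gart, Cdca7l, Fads1 and Mmp7. Over the 5 libraries without PBS replicate 2, no defensin and no member was among the 5 closest to any member. The closest gene was then Plekha1 for Itln1, Epb41l2 for Lyz1, Xrcc6 for Mmp7 and Mybbp1a for Mptx2. Since PBS replicate 2 dominates each 6-library profile, these are descriptions only.

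Some reads could belong to close relatives of the members. Of 444 coding bases, Lyz1 shares 422 with Lyz2, the lysozyme of myeloid cells, which lies beside it on chromosome 10. Mptx2 is 92.1% identical to Mptx1, and Ang4 is 85.1% to 88.3% identical to Ang, Ang2, Ang5 and Ang6. Of all 50-base stretches of each gene's transcripts, 134 of 745 for Mptx2, 16.1% for Lyz1, 7.4% for Mmp7 (AV064505), 4.7% for Ang4 and 1.0% for Itln1 also occur in another annotated gene. At 100 bases these shares were 3.3%, 2.1%, 2.6%, 0.0% and 0.0%. The read length is not given in the sources used here. Neither Lyz2, Mptx1 nor any of the 4 Ang relatives was listed; of 14 genes named for the angiogenin family and its inhibitor, Ang4 and Rnase1 were. Rnase1, a secreted ribonuclease, had 0.876, 1.09 and 1.69 FPKM in Akk, against 2.53, 13.4 and 4.41 FPKM in PBS, without overlap. Its log2 fold change was -2.47 (SE 0.82; edgeR adjusted p = 0.0861) with all libraries and -1.51 (SE 0.39; edgeR adjusted p = 0.0450) without PBS replicate 2, where 17.7% of all entries passed as lower.

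Genes that direct or equip Paneth cells were mostly not listed. Of the 29 named, 4 were, all as lower, and 0 of the 4 passed the edgeR test with all libraries. Over the whole table, 1040 of the 1386 entries were listed as lower and 0% passed that test. Sox9, a transcription factor that Paneth cells require, had 0.334, 0.622 and 0.641 FPKM in Akk, against 1.51, 6.84 and 0.412 FPKM in PBS, with overlap. Ephb2, a receptor that helps position cells along the crypt, had 0.754, 0.507 and 0.469 FPKM in Akk, against 1.37, 10.1 and 1.53 FPKM in PBS. Irgm1, an immunity-related GTPase, had 29.6, 27.3 and 38.6 FPKM in Akk, against 63.5, 62.6 and 84.0 FPKM in PBS. Irgm1 was thus not raised in PBS replicate 2. The Ephb2 log2 fold change was -2.98 (SE 0.85; edgeR adjusted p = 0.0861) with all libraries and -1.62 (SE 0.19; edgeR adjusted p = 0.0157) without PBS replicate 2. For Irgm1 it was -1.16 (SE 0.42; edgeR adjusted p = 0.0861) with all libraries and -1.22 (SE 0.25; edgeR adjusted p = 0.0397) without that library. Neither passed with all libraries; with PBS replicate 2 left out both passed, as did 17.7% of all entries as lower.

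Every listed stem cell and proliferation gene was highest in PBS replicate 2, as were 98.3% of the genes listed as lower. Summed FPKM of the 7 listed stem cell genes, of 18, was 8.68, 11.4 and 8.37 in Akk, against 14.8, 646 and 17.2 in PBS. Olfm4 alone had 498 FPKM in PBS replicate 2. For the 27 listed proliferation genes, of 28, it was 39.9, 48.1 and 54.9 in Akk, against 90.8, 864 and 73.03 in PBS. Clps, colipase, the single listed pancreatic marker of 15 and also on the list of Paneth cell genes, had 2.45, 2.42 and 2.27 FPKM in Akk, against 1.24, 66.1 and 1.56 FPKM in PBS. The 4 listed enterocyte genes, of 20, were all listed as higher. They summed to 5754, 6506 and 5030 FPKM in Akk, against 2382, 680.5 and 4002 FPKM in PBS, lowest in PBS replicate 2. All 346 genes listed as higher also summed lowest there, at 40007 FPKM, against 56558 and 45964 FPKM in PBS replicates 1 and 3. The part of crypt content or other cells in the members' values was not tested.

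Itln1 is also made in goblet cells, for which 4 of 17 named genes were listed, 2 of them as higher. Clca3b had 4.48, 5.71 and 5.56 FPKM in Akk, against 10.9, 266 and 12.8 FPKM in PBS. Its log2 fold change was -4.20 (SE 1.26; edgeR adjusted p = 0.0861) with all libraries. With PBS replicate 2 left out it was -1.17 (SE 0.20; edgeR adjusted p = 0.0352), a setting in which 17.7% of all entries passed as lower. The other lower one, Ccl9, had 0.461, 0.187 and 0.487 FPKM in Akk, against 0.860, 6.47 and 0.330 FPKM in PBS, with overlap. The Ccl9 log2 fold change was -2.73 (SE 1.15; edgeR adjusted p = 0.0861) with all libraries and -0.63 (SE 0.56; edgeR adjusted p = 0.305) without PBS replicate 2. Zg16 and Muc13, which were listed as higher, were not raised in PBS replicate 2. Among 25 further antimicrobial and acute defence genes the table marked 4 as higher and 1 as lower, beside 346 of 1386 entries marked as higher. The 3 most abundant of the higher ones were the secreted lectins Reg3b and Reg3g and their relative Reg1. None passed with all libraries, with log2 fold changes of 0.77 for Reg3b (edgeR adjusted p = 0.141), 0.40 for Reg3g (0.298) and 1.10 for Reg1 (0.0861). Without PBS replicate 2 these were 1.06 (edgeR adjusted p = 0.0652), 0.35 (0.183) and 0.89 (0.0567). The lower one was Pglyrp1, a peptidoglycan-recognition protein, with 26.0, 24.5 and 24.0 FPKM in Akk, against 42.7, 77.2 and 40.9 FPKM in PBS. The Pglyrp1 log2 fold change was -1.11 (SE 0.53; edgeR adjusted p = 0.0966) with all libraries and -0.75 (SE 0.18; edgeR adjusted p = 0.0429) without PBS replicate 2. Of 12 genes named for the type 2 cytokine response, Pdcd4 alone was listed, as lower; it encodes an inhibitor of translation and is not itself a cytokine.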

How the data were processed

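RNA of intestinal epithelial cells was sequenced as mRNA libraries (Trizol extraction, Illumina, per the labels' protocols); mm10 is the build in the submitters' processing notes. The aligner, the counter, its strand setting and the annotation were not given in the sources used here. For 6 libraries the authors deposited, in 1 table, raw counts of reads and FPKM values, per the file headers, with their own p-value and log2 fold change, whose test and adjustment are not stated. The table has 1386 entries, 1322 with an Ensembl identifier, all found in GENCODE M21 (GRCm38); 2 lines without values were left out.

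Library sizes came from dividing counts by FPKM over 560 genes with at least 200 counts in every library. edgeR 4.0.16 (quasi-likelihood F test, filterByExpr, Benjamini-Hochberg at 0.05 over all entries) compared Akk with PBS. Each SE given with an edgeR fold change was derived, as the size of the log2 fold change divided by the square root of F. It is not a standard error that edgeR itself reports. Single values and ratios were compared by exact permutation tests (scipy 1.17.1). DESeq2 1.42.0, limma 3.58.1 (voom), TMM and RLE factors, other count filters, a replicate block and leaving out each library were alternatives. Promoter sequences came from RefSeq (GRCm38.p6), where all 5 listed members had an entry. Motif matches were sought from 250 bases before to 50 after the start.

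The members and lists were chosen with earlier results of these data known. Other genes named were the 5 most like each member (mean FPKM of at least 1) and up to 4 of each list with the highest mean FPKM, and paralogs. Genes named with the sign change of Itln1 were chosen after their values were seen. Leaving out libraries for FPKM, the pseudocount of 1, the likeness without PBS replicate 2 and the count of members past the threshold were added after seeing the data.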

Additional observations from a re-analysis of the deposited data

How the results depend on the processing

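The count of entries past the edgeR threshold was 0 with all 6 libraries, and became 6 with the replicate block, 2 with limma-voom and 786 with DESeq2. With 1 library left out at a time, 0 to 734 entries and 0 to 5 members passed: 734 entries when PBS replicate 1 was dropped, 270 for PBS replicate 2 and 732 for PBS replicate 3. The log2 fold change ranged over these from -4.46 to -0.53 for Ang4, -3.52 to 0.090 for Itln1, -4.62 to -0.45 for Lyz1, -3.35 to -0.45 for Mmp7 and -5.23 to -0.20 for Mptx2. Itln1 turned to 0.090 without PBS replicate 2, and its difference in log2 FPKM (range -2.27 to 0.097) to 0.097. Without that library, differences in log2 ratio turned from 0.0081 to -0.073 (Ang4 to Lyz1), 0.045 to -0.34 (Ang4 to Mptx2), 0.037 to -0.27 (Lyz1 to Mptx2) and 0.49 to -0.25 (Mmp7 to Mptx2); none of these passed its test in either setting, and the cause was not tested. Under TMM and RLE factors the median over the table was -0.21 and -0.15 on the log2 scale (-1.85 without them), and over the 5 members -1.54 and -1.41 (-3.92 without them), with no member turning sign. Filters on low counts removed no entry and say nothing about stability. With the replicate block, member log2 fold changes were -1.91 (Ang4), -1.78 (Lyz1), -1.69 (Mptx2), -1.54 (Mmp7) and -1.14 (Itln1), none past the threshold; the numbers are not known to pair samples, since same-numbered deviations correlated at 0.24, -0.05 and -0.29.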
